A study of Mus musculus with 4 samples.

Results

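The genes examined here encode tropomyosins (Tpm1, Tpm2, Tpm3, Tpm4), muscle actins (Acta1, Actc1, Acta2) and alpha-actinins (Actn2, Actn3), 9 genes whose products build the thin filament and its anchor at the Z-disc. Their peaks were taken from ATAC-seq peak lists of 4 mouse muscles by the gene name that the deposited annotation gives each peak, which is that of the nearest transcription start site (TSS). This gave 61 of 120839 peaks, with 15 in extensor digitorum longus (EDL), 19 in quadriceps (Quad), 18 in soleus (Sol) and 9 in diaphragm (Dia). Of the 9 genes, 8 had at least 1 peak and Actc1 had none, against 17157 genes with a peak in any list. Peaks of different lists that overlapped by at least 1 bp were joined, which gave 29 merged regions for these genes among 53883 in all.

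ATAC-seq uses the Tn5 transposase to insert sequencing adapters where chromatin is accessible, so a peak marks a stretch of open DNA in the nuclei of the tissue. All 4 muscles came from wild-type C57BL/6 mice by the labels, given as male C57BL/6J mice in the study's methods and as sedentary in its design text, with no transgene and no treatment in any group. EDL and Quad are fast, mostly glycolytic limb muscles, Sol is a slow, oxidative limb muscle, and Dia is the continuously working muscle of breathing. There was 1 library for each muscle, described by the labels as pooled. How many animals or replicates a list combines is not known. Thus no muscle has a replicate error here, no difference between muscles was tested, and each value describes its library. Whole muscle holds vessels, nerve and connective tissue beside fibres. A region that is open in fewer nuclei and a region that is less open in each nucleus therefore cannot be told apart.

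In total there were 30136 peaks in EDL, 40337 in Quad, 28784 for Sol and 21582 for Dia, and inferred depths ran from 78.1 M tags in Quad to 104.6 M in Sol (M, mega) if scores were scaled to 10 M tags. The weakest listed peak held between 25 tags (Quad) and 36 tags (Dia), and a gene without a peak had none called, which is not the same as no signal. Of 10 skeletal muscle fibre markers, 9 had a promoter peak in EDL, 8 in Quad, 8 for Sol and 5 for Dia. Of 4 cardiac markers, none had a promoter peak in any list, and Myh6, Nppa and Nkx2-5 had no peak at all. Of 6 endothelial markers, 4 had a promoter peak in EDL, all 6 in Quad, 4 for Sol and 3 for Dia, and of 5 fibroblast markers 1, 1, 1 and 0 in the same order. Of 5 leukocyte markers and 3 Schwann cell markers, none had a promoter peak in any list. Over all genes with a peak, between 50.5% (Dia) and 56.8% (Quad) had one.

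As background, tropomyosins are coiled-coil proteins that lie end to end along actin filaments and, with troponin, control the access of myosin to actin. Tropomyosin genes can give long forms from a distal promoter, among them those used in the sarcomere. Some also give short cytoskeletal forms from an internal promoter. Acta1 encodes the actin of adult skeletal muscle, Actc1 the actin of the heart and of developing skeletal muscle, and Acta2 the actin of vascular smooth muscle. Alpha-actinins cross-link actin at the Z-disc, where Actn2 is used by all fibre types and Actn3 by fast fibres. Actin genes are textbook targets of serum response factor, which binds the CArG box. MEF2, the myogenic basic helix-loop-helix factors (E-box) and TEAD factors are other known regulators of muscle genes.

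Regions on which the descriptions below turn are shown first, 7 that some lists hold and others lack and 1, past Acta1, that all hold. Each is the stretch that the peaks of the named lists have in common, shortened where it would have run into an annotated exon, read on the strand of its gene from the RefSeq sequence of GRCm38.p6 (the assembly of mm10). Capitals mark exact matches to the CArG box, to the TEAD site CATTCC, on either strand, or to the E-box CAGCTG. A run without capitals holds no exact match to a searched motif. The pair at Acta1 shows a promoter listed in EDL, Quad and Dia (chr8:123894784-123894927) and a region past the gene listed in all 4 muscles (chr8:123883088-123883270), with the CArG box in the promoter:
Acta1 promoter: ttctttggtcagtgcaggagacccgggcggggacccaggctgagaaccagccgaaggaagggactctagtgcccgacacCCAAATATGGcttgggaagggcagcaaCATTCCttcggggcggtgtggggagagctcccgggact
Acta1 downstream: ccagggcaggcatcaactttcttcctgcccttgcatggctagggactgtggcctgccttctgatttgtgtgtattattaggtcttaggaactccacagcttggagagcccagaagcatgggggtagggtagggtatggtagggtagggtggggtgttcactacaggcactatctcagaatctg

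The pair at Actn3 shows its promoter region, listed in Quad (chr19:4877914-4878102), and its intron 1 region, listed in EDL and Quad (chr19:4876916-4877078). Only the intron 1 region was listed in both fast limb muscles:
Actn3 promoter: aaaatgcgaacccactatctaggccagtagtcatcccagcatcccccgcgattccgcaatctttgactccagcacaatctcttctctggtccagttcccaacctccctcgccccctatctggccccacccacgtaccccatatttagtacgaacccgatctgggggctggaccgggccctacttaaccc
Actn3 intron 1: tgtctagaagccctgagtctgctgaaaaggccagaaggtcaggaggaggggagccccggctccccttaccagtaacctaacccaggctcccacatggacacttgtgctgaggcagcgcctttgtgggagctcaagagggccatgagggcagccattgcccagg

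At Tpm3 the shown stretch lies at the start of the long form and was listed in Sol (chr3:90072460-90072648). At Tpm1 it lies at the start of the short form, where Quad and Sol peaks coincide and Dia has a peak that reaches into them (chr9:67043990-67044131):
Tpm3 promoter of the long form: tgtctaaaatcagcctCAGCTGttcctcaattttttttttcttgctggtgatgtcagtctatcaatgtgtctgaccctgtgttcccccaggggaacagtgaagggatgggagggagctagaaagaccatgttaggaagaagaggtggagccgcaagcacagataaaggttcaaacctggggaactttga
Tpm1 promoter of the short form: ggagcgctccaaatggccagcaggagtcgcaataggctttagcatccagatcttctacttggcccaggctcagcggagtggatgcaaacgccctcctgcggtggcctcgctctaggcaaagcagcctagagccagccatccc

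The pair at Actn2 lies in intron 1 and shows the region shared by EDL, Sol and Dia (chr13:12337912-12338093) and a region of Sol (chr13:12324968-12325174), both with high scores in Sol:
Actn2 intron 1, shared: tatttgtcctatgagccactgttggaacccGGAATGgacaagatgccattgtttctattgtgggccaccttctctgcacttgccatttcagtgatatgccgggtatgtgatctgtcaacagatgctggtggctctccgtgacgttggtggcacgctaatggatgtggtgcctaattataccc
Actn2 intron 1, Sol: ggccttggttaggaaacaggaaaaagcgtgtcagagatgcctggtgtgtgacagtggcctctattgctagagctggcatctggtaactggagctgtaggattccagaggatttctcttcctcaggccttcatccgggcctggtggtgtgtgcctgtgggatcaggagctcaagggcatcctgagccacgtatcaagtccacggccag

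Counts per gene and list ran from 0 (Actc1 in every list) to 6 (Actn2 in Sol). The 4 tropomyosin genes held 6 peaks in EDL, 9 in Quad, 7 for Sol and 6 for Dia. The 3 actin genes held 6, 5, 5 and 2 in the same order, and the 2 alpha-actinin genes 3, 5, 6 and 1. Over the 8 genes with a peak the mean was 1.88 in EDL, 2.38 in Quad, 2.25 for Sol and 1.12 for Dia, beside 1.76, 2.35, 1.68 and 1.26 over all genes with a peak. The order of the muscles for these genes differed from that of all genes in that Sol stood above EDL. The Quad count depends on the length of its list. Restricted to its 20000 highest-scored peaks, each list gave these genes fewer or equally many, with 12 peaks in EDL, 9 in Quad, 17 for Sol and 9 for Dia, and Sol rather than Quad then held the most.

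**Figure D1:**
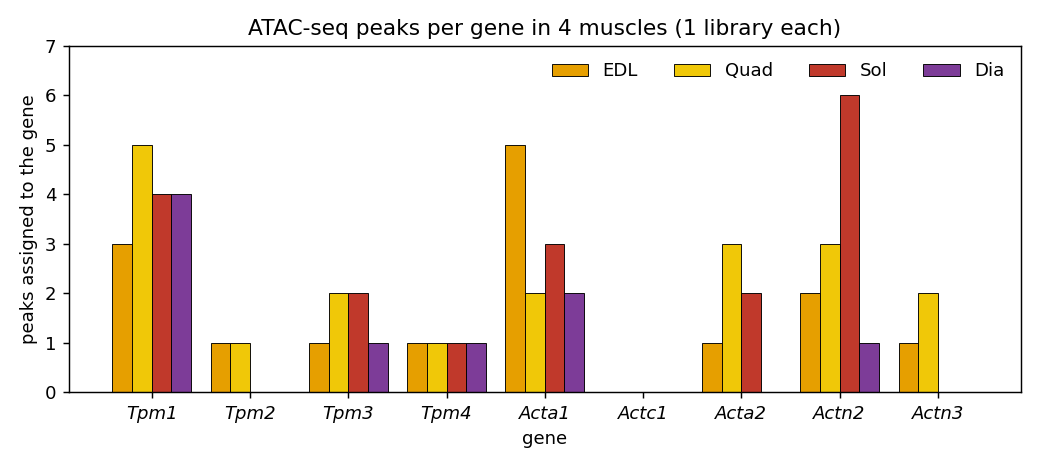
Number of ATAC-seq peaks (y axis) assigned to each of the 9 genes (x axis) in the EDL, Quad, Sol and Dia lists, 1 library each, with no error bars because there are no replicates. Actn2 reaches 6 peaks in Sol and Acta1 reaches 5 in EDL, while Actc1 has none in any list and Tpm2 and Actn3 have none in Sol or Dia.

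The direction of the differences was mixed. More peaks in Quad than in Sol were counted for 4 of the 8 genes with a peak (Tpm1, Tpm2, Acta2 and Actn3), where 45.7% of all such genes did the same, and more in Sol than in Quad for 2 (Acta1 and Actn2), against 12.4% of all genes. More peaks in EDL than in Sol were counted for Tpm2, Acta1 and Actn3, 3 of 8 genes against a background of 24.9%. More in Sol than in EDL were counted for Tpm1, Tpm3, Acta2 and Actn2, 4 of 8 against 21%. With 8 genes these shares are coarse.

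Promoter peaks, which the deposited annotation places from 1 kb upstream of a TSS, were found for 4 of the 8 genes in EDL, where 51.8% of all genes with a peak had one. In Quad they were found for 6 of 8 (background 56.8%), in Sol for 2 of 8 (51.5%) and in Dia for 3 of 8 (50.5%). The 2 genes of Sol were Tpm1 and Tpm3, which each had a promoter peak in every list, a pattern shared by 7008 of the 17157 genes (40.8%). Both genes have 2 starts, and not every start was listed in every muscle. Acta1 had a promoter peak in EDL, Quad and Dia and not in Sol, a pattern of 349 genes (2.03%) that among the compared genes also held Klhl40, which encodes a protein that stabilises thin filament components, and the non-muscle alpha-actinin Actn4. Actn2 had one in EDL and Quad (300 genes, 1.75%). Acta2 and Actn3 had one in Quad (728 genes, 4.24%), as did Tmod1, a pointed-end capping protein of thin filaments. Tpm2 and Tpm4 had no promoter peak in any list (6062 genes, 35.3%), as was so for Tnni1, Tnnt1, Neb and Myoz1.

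**Figure D2:**
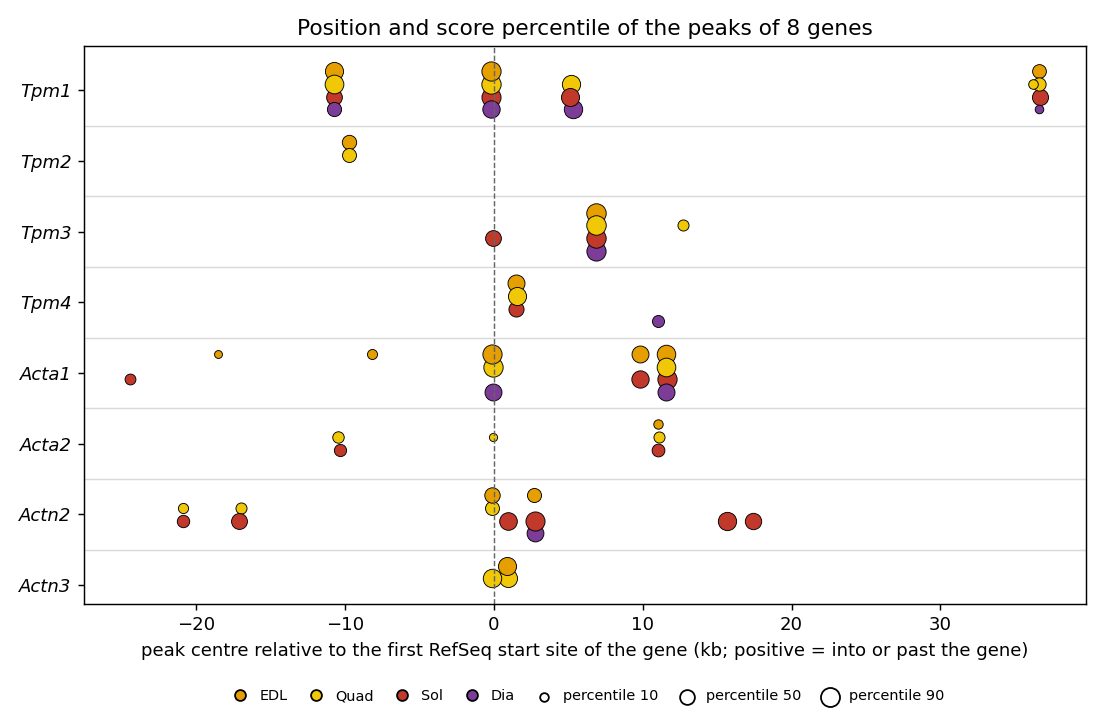
Position of every peak of the 8 genes with a peak, as the distance of its centre from the first RefSeq start site in kb (x axis, positive into or past the gene), 1 row per gene, with colour for the muscle and marker size for the score percentile within that muscle's list. Tpm1, Tpm3, Acta1 and Actn2 have marks at several positions in several muscles, whereas Tpm2 and Actn3 carry EDL and Quad marks with none from Sol or Dia.

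Tpm1 encodes alpha-tropomyosin, and RefSeq gives it 2 starts, a distal one for the long proteins of 281 to 284 residues at chr9:67049213 and an internal one for the short proteins of 245 to 248 residues at chr9:67043871. The distal promoter was listed in all 4 muscles, with scores of 16.8 in EDL (95% Poisson interval of the tag count, put on the score scale, 14.4 to 19.5), 17.8 in Quad (15 to 21), 15.9 in Sol (13.6 to 18.5) and 10.8 in Dia (8.85 to 13.1). The Dia interval lay below the other three, which overlapped each other. Here and below the intervals cover counting error only and treat tags as independent. Score is taken to be the tag count of a peak scaled by library size. The share of all shared regions with separated intervals was not computed, so a separation is not shown to be particular to these genes. The internal promoter was listed in Quad, Sol and Dia with scores of 11.9, 11.7 and 13.6. It had no peak in EDL, where the nearest one lay 5126 bp away, at the distal promoter. The 3 internal peaks form a chain of 430 bp in which the Dia peak, centred 12 bp upstream of the internal TSS, barely meets the Sol peak, centred 222 bp upstream.

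Outside the promoters, Tpm1 had an intergenic region 10758 bp upstream of the distal TSS in all 4 lists. Its scores were 11.7 in EDL (9.72 to 14), 13.7 in Quad (11.2 to 16.6), 8.03 in Sol (6.41 to 9.94) and 7.05 in Dia (5.5 to 8.91). The Quad interval did not overlap those of Sol and Dia, and as a percentile of the score within its list the region stood at 80.7, 86.8, 57.8 and 45.3. A region 36643 bp past the distal TSS, beyond the 3' end of the gene, went the other way between the limb muscles, with percentiles of 42.1 in EDL, 38.2 in Quad, 61 for Sol and 9.72 for Dia, but the intervals of its scores in EDL, Quad and Sol overlapped. Quad had a further weak peak beside it (34 tags, percentile 15).

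Tpm3 encodes the tropomyosin of slow fibres in its long form, and it too has 2 starts in RefSeq, at chr3:90072651 for proteins of 285 residues and at chr3:90079521 for the short proteins of 247 or 248 residues. The start of the long form, whose sequence is printed above with an E-box, was listed in Sol, with a score of 8.12 (6.49 to 10), 85 tags and percentile 58.6. No other list had a peak there, and the nearest peaks of EDL, Quad and Dia lay 6748, 6782 and 6724 bp away, at the internal promoter. That internal promoter was listed in all 4 muscles with scores of 19.3 in EDL, 20.1 in Quad, 18.3 for Sol and 17.5 for Dia and with percentiles between 91.9 and 95.1. Its 4 intervals overlapped, and it held the highest-scored peak of the 9 genes in every list. Quad had a weak peak in an intron as well (37 tags, percentile 23.4).

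At both Tpm1 and Tpm3 the lists thus separated the 2 starts. At Tpm1 the distal start was listed in 4 muscles and the internal one in 3, and at Tpm3 the distal start was listed in 1 and the internal one in 4. The peak of the distal Tpm3 start also lacked the high CpG content of the other three regions. Its ratio of observed to expected CpG was 0.16, beside 0.73 at the internal Tpm3 start and 0.84 and 0.87 at the distal and internal starts of Tpm1.

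Tpm2, which encodes beta-tropomyosin, had a single region, centred 9724 bp upstream of its TSS within intron 53 of the neighbouring gene Tln1. It was listed in EDL (69 tags, percentile 46.6) and Quad (47 tags, percentile 43.4). In Sol and Dia the nearest peaks lay 29054 and 29147 bp away and were assigned to Tln1 and Creb3. A promoter peak of Car9, a neighbour on the other side, was listed in Quad alone (percentile 41.8).

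Tpm4, which encodes a cytoskeletal tropomyosin of 248 residues, had a region in intron 1, centred 1469 bp past its TSS, in EDL, Quad and Sol. The scores were 9.43 in EDL, 11.4 in Quad (9.16 to 14) and 7.46 in Sol (5.9 to 9.31), so the Quad and Sol intervals just overlapped while the percentiles, 80.4 and 52.8, lay further apart. Dia had its only Tpm4 peak elsewhere, in intron 4 (58 tags, percentile 29.6). The promoter of the neighbour Rab8a, 25840 to 25842 bp past the Tpm4 TSS, was listed in all 4 muscles at percentile 99.2 or higher.

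Acta1, the skeletal muscle actin, had its promoter listed in EDL, Quad and Dia, centred 113, 58 and 64 bp upstream of the TSS. The scores were 16.7 in EDL (14.3 to 19.4), 17.8 in Quad (15 to 21) and 10.1 in Dia (8.22 to 12.3). The Dia interval lay below those of EDL and Quad, and the percentiles were 92, 93.2 and 69.3. In Sol no peak was listed there and the nearest one lay 9652 bp away. The Dia peak at this promoter held 100 tags, and a list of peaks does not give the Sol signal at the same place. The paper shows a super-enhancer, a long domain of enhancer signal, along Acta1 as common to all muscles. The printed promoter holds the CArG box at position 80 and the TEAD site at position 107, counted from the 5' end of the printed run.

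Sol did list the regions past the 3' end of Acta1. The one 11592 bp past the TSS, printed above, was listed in all 4 muscles with scores of 13.1 in EDL (11 to 15.5), 13.4 in Quad (11 to 16.2), 17.0 in Sol (14.6 to 19.7) and 10.2 in Dia (8.31 to 12.4). Sol was highest, its interval overlapped those of EDL and Quad and not that of Dia, and its percentile was 92.4. A second region, 9826 bp past the TSS, was listed in EDL (97 tags, percentile 69) and Sol (106 tags, percentile 72.7). The remaining Acta1 peaks were weak and lay in introns of the neighbouring gene Nup133, with 48 and 42 tags in EDL (8158 and 18520 bp upstream) and 52 in Sol (24445 bp upstream).

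Actc1 had no peak in any list. Near it, peaks assigned to the non-coding gene C130080G10Rik were listed in Quad at that gene's promoter, 837 bp upstream of the GENCODE start of Actc1 (56 tags, percentile 55.7), and in its intron 2 in Sol (52 tags, percentile 21.9) and Dia (65 tags, percentile 39.2). The count of 0 for Actc1 is thus one of peaks nearest to its own start. EDL listed nothing within 10 kb of it.

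Acta2, the smooth muscle actin, had 6 peaks, none in Dia and all of low score. Its intron 7 region, 11048 bp past the TSS, was listed in EDL (46 tags), Quad (37 tags) and Sol (61 tags) at percentiles of 13.7, 23.4 and 34.6. A merged region 10388 bp upstream, 361 bp long, was listed in Quad (38 tags) and Sol (58 tags). Its peaks, centred 10470 bp upstream in Quad and 10307 bp upstream in Sol, overlapped only at their ends. The merged region holds a CArG box, and which peak holds it was not recorded. The promoter was listed in Quad with 32 tags, percentile 7.89, close to the 25 tags of the weakest Quad peak. The intervals of the scores overlapped at both shared regions. All 3 Quad peaks lay outside the 20000 highest-scored of that list. The 10 smooth muscle and pericyte markers held 20 peaks in EDL, 28 in Quad, 14 for Sol and 11 for Dia, most in the longest list and fewest in the shortest, as all peaks are. Promoter peaks were listed for 4, 5, 2 and 3 of them, against 51.8%, 56.8%, 51.5% and 50.5% of all genes with a peak. Smtn had one in all 4 lists, Lmod1 in EDL, Quad and Sol, and Cspg4 in EDL, Quad and Dia. Myh11 had one in EDL and Quad, Notch3 in Quad, and Pdgfrb in Dia. Tagln, Cnn1, Rgs5 and Mylk had none in any list. The part of these 10 markers in the Acta2 result was not tested.

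Actn2, the alpha-actinin of all fibres, differed in where its peaks lay. Its promoter was listed in EDL (78 tags, score 7.5, 5.93 to 9.36) and Quad (47 tags, score 6.02, 4.42 to 8.01), with overlapping intervals, and the Quad peak lay outside the 20000 highest-scored of its list. Sol and Dia listed no peak there, and their nearest peaks lay 880 and 2642 bp away, inside intron 1. The intron 1 region printed above, centred 2742 bp past the TSS, was listed in EDL with a score of 6.45 (5 to 8.19), in Sol with 15.9 (13.6 to 18.5) and in Dia with 9.87 (8.01 to 12). The Sol interval lay above both others, and the percentiles were 44.3, 90.9 and 68.1.

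Sol had 3 more peaks in Actn2 intron 1, at 968, 15661 and 17397 bp past the TSS, with 112, 129 and 92 tags and percentiles of 75.7, 82.3 and 63.9. None of the other lists held a peak at these 3 positions. Upstream of the gene, regions at 17054 and 20888 bp were listed in Quad and Sol. At the nearer one the score was 4.74 in Quad (3.34 to 6.53) and 8.22 in Sol (6.57 to 10.2), intervals that lay side by side without overlap, and at the farther one they overlapped.

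Further into Actn2 the deposited annotation assigned peaks to the neighbour Mtr, whose start is nearer to them. Within intron 12 of Actn2 a peak was listed in all 4 muscles, with percentiles of 74.4 in EDL, 77.9 in Quad, 84.5 for Sol and 67.5 for Dia. Intron 9 held peaks in Quad (31 tags), Sol (79 tags) and Dia (49 tags), and intron 7 one in Quad (37 tags). Counted by the gene span with 10 kb on each side, Actn2 then had 3 peaks in EDL, 4 in Quad, 6 for Sol and 3 for Dia, so Sol held the most under both ways of counting and Dia was no longer lower than EDL.

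**Figure D3:**
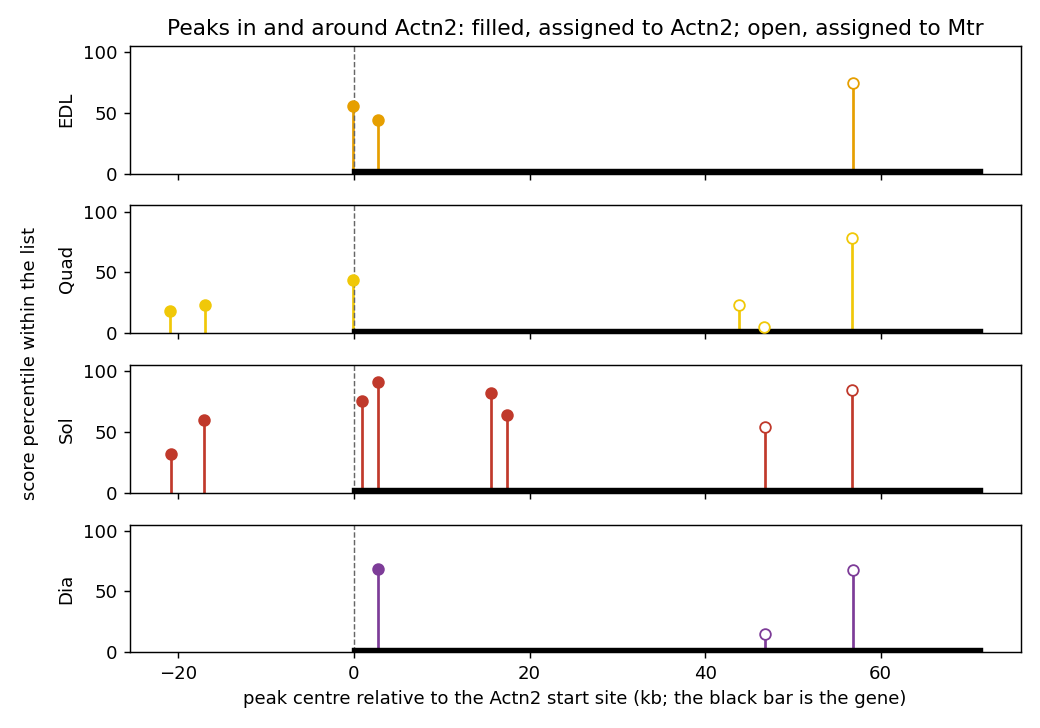
Peaks in and around Actn2, 1 panel per muscle, with the distance of the peak centre from the Actn2 TSS in kb (x axis) and the score percentile within that muscle's list (y axis, 0 to 100). The black bar is the gene, filled points are peaks assigned to Actn2 and open points those assigned to Mtr. Sol has 4 filled points within intron 1, up to percentile 90.9, where EDL and Dia have 1 each and Quad none.

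Actn3, the alpha-actinin of fast fibres, was listed in the fast limb muscles. Its intron 1 region, centred 907 bp past the TSS, was listed in EDL (120 tags, score 11.5, 9.53 to 13.8) and Quad (88 tags, score 11.3, 9.06 to 13.9), with nearly equal scores and percentiles of 80 and 79.9. Sol and Dia listed no peak there. Their nearest peaks lay 1381 and 1306 bp away and belonged to the neighbour Zdhhc24.

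The Actn3 promoter region itself, centred 99 bp upstream of the TSS, was listed in Quad (98 tags, score 12.6, 10.2 to 15.4, percentile 84). The nearest peaks of EDL, Sol and Dia lay 340, 403 and 328 bp away, in the promoter of Zdhhc24, a gene that starts nearby on the other strand. Those Zdhhc24 peaks were centred 638 to 700 bp upstream of the Actn3 TSS in all 4 lists, at percentiles of 95.3 in EDL, 96.5 in Quad, 94.1 for Sol and 91.7 for Dia. The Quad promoter call of Actn3 therefore stands beside a strong neighbour that every list holds.

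Across all 29 regions, sharing between muscles was compared with that of all regions. All 4 lists held 5 of the 29 (17.2%, 95% Wilson interval 7.6% to 34.5%), where the background was 26.9%, inside that interval. These 5 are the distal promoter, the upstream and the downstream region of Tpm1, the internal promoter of Tpm3 and the downstream region of Acta1. A single list held 12 regions (41.4%, against 42.6% of all regions), of which 5 were in Sol, 4 in Quad, 2 in EDL and 1 in Dia. Over all regions those held by a single list were mostly from Quad, with 12228 regions against 4643 from Sol, 3617 from EDL and 2485 from Dia. Another 7 regions were in 2 lists (24.1%, against 17.4% of all regions) and 5 in 3 (17.2%, against 13.1%).

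EDL and Quad shared 11 regions of these genes, which were 73.3% of those of EDL and 57.9% of those of Quad, where the shares over all regions were 80.8% and 60.4%. Quad and Sol shared 11 as well, 57.9% of Quad against 54% over all regions and 61.1% of Sol against 75.6%. EDL and Sol shared 9, 60% of EDL against 68.3% and 50% of Sol against 71.5%. Dia shared 7 with each of the others, 77.8% of its own regions each time, near the 77.3% (EDL), 80.7% (Quad) and 77.2% (Sol) over all regions.

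**Figure D4:**
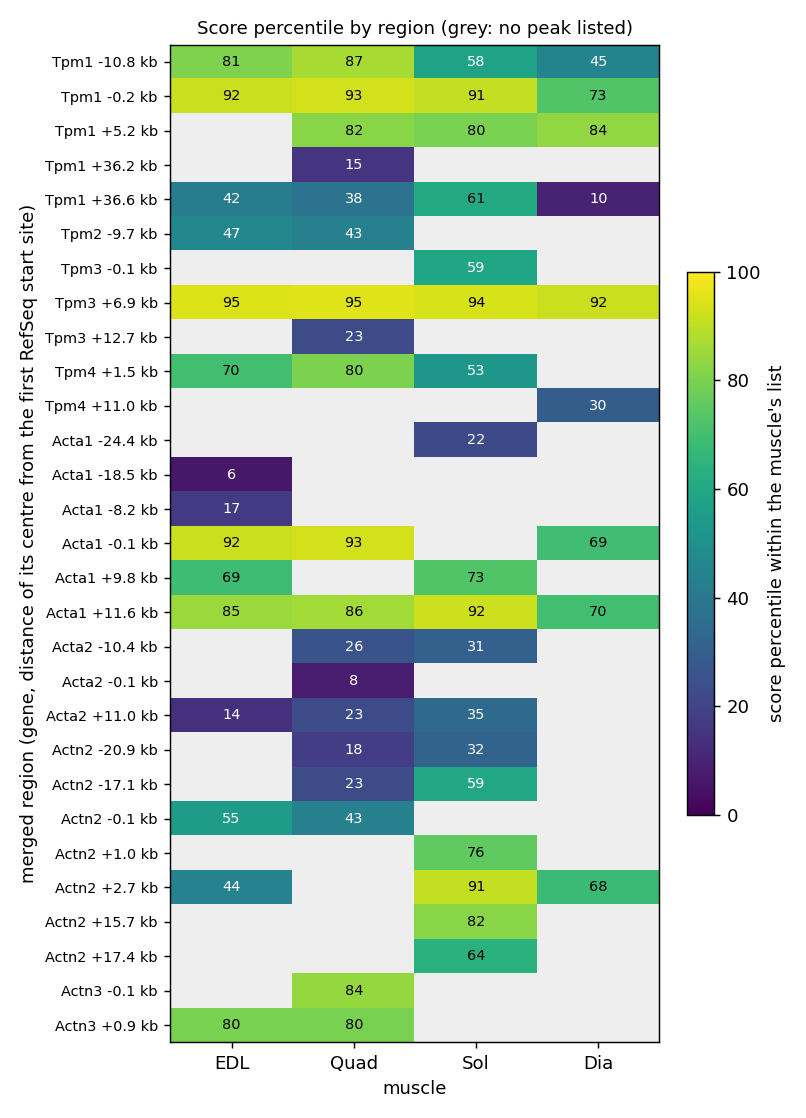
Score percentile within the muscle's list (colour and printed number, 0 to 100) of each of the 29 merged regions (rows, named by gene and distance of the region from the first RefSeq start in kb) in each muscle (columns), with grey where no peak was listed. The rows filled in all 4 columns belong to Tpm1, Tpm3 and Acta1, and the Actn2 rows are filled mostly in the Sol column.

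Of the 11 regions shared by Quad and Sol, 2 stood over 25 percentile points higher in Quad (the upstream region of Tpm1 and intron 1 of Tpm4), where 12.8% of all shared regions did. The upstream region of Actn2 at 17054 bp stood over 25 points higher in Sol, 1 of 11 against a background of 3.07%. In either direction, 0 of 11 regions shared by EDL and Quad differed by over 25 points (all shared regions 14.8%). For EDL and Sol it was 1 of 9 (11.2%). With Dia it was 2 of 7 for EDL (15.7%), 2 of 7 for Quad (22.1%) and 1 of 7 for Sol (14.6%). By their level, the median percentile of the genes' peaks was 69 in EDL, 43.4 in Quad, 62.5 for Sol and 69.3 for Dia. Over all lists, their 19 promoter peaks had a median of 84 beside 77 for all promoter peaks, and their 21 intragenic peaks 46.6 beside 40.5. Their 21 intergenic peaks had a median of 57.8 beside 34.6, with each shared region entering once for each list. By list the intergenic medians were 74.9 in EDL (all such peaks 35.7), 59.4 in Sol (34.6) and 45.3 in Dia (31.1). Quad went the other way, with 25.8 beside 36.4. By place, 31.1% of the 61 peaks were in promoters (all peaks 31.1%), 34.4% were intragenic (38.9%) and 34.4% intergenic (30%), counting a shared region once for each list. The lists differed in direction. In Quad 36.8% of the genes' peaks were in promoters (19.1% to 59%) against 25.5% of all Quad peaks, and in Sol 22.2% (9% to 45.2%) against 31.9%, both with the value over all peaks inside the interval.

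Related genes give a setting for these counts. The cytoplasmic actin Actb held 5 peaks in EDL, Quad and Sol and 4 in Dia, and the non-muscle alpha-actinin Actn1 held 3, 4, 4 and 4, both with a promoter peak in every list. Actn4 held 2, 3, 2 and 2. The cytoplasmic actin Actg1 and the enteric smooth muscle actin Actg2 had no peak assigned to them. The 22 other thin filament and Z-disc genes compared (troponins, nebulin, tropomodulins, leiomodins, capping proteins and Z-disc binding proteins) held 60 peaks in EDL, 70 in Quad, 54 for Sol and 34 for Dia, and 13, 16, 15 and 9 of them had a promoter peak.

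The 4 motifs were searched on both strands in the whole merged regions. The CArG box was searched as CCWWWWWWGG and the MEF2 site as CTAWWWWTAR or YTAWWWWTAG (W, A or T, R, A or G, Y, C or T). A site that departs from its pattern at any base was not counted. The CArG box was found in 3 of the 29 regions (10.3%, 3.58% to 26.4%), against 1.3% of all regions, and those 3 are the Acta1 promoter, the Acta2 upstream region and intron 1 of Tpm4. The TEAD site was found in 7 (24.1%, 12.2% to 42.1%, against 14.5%) and the E-box in 4 (13.8%, 5.5% to 30.6%, against 23.4%). The MEF2 site was found in 1 (3.45%, 0.611% to 17.2%, against 4.38%), the upstream region of Tpm1. For these 3 motifs the share of all regions lay inside the interval. Within windows of 200 bp at the best peak, the CArG box remained in 2 regions, against 1.07% of all. The E-box CAGCTG is a palindrome and no searched motif contains another. In the RefSeq promoter sequences, from 250 bases before to 50 after each start, 8 of the 9 genes (all but Actn3) had an entry, with 9 promoters among them. The CArG box was in 2 of the 9 (Acta1 and Actc1), against 1.63% of all promoters, the E-box in 5 (those of Acta1, Acta2, Tpm2, Tpm3 and Tpm4), against 16.3%, the TEAD site in 3 (Acta1, Acta2 and Tpm1), against 14.7%, and the MEF2 site in 0, against 1.86%. The E-box share was lower than that of all features in the regions, within the interval, and higher in these 9 promoters. Both counts are small. A match is a description of letters and not of a bound factor, and the median GC content of the 29 regions, 52.5%, was near the 53% of all regions.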

How the data were processed

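ATAC-seq was carried out on nuclei from frozen, pulverised muscle, with 1 pooled library for each of 4 muscles. The authors aligned the reads to mm10 with Bowtie2, called peaks in each library on its own with HOMER at a fixed width (EDL 208 bp, Quad 188 bp, Sol 206 bp, Dia 232 bp), and gave each peak the gene whose start site lay nearest. The reads were paired-end, and at most 1 read per start position was kept. How read ends were shifted for Tn5 is not given in the sources used here. The deposited score of each peak was taken to be its tag count scaled by library size, as HOMER usually writes it, and tag numbers and their intervals rest on that. A wider peak can collect more tags, and a missing peak means only that none was called. Peaks over repeats or near-identical copies, as in the actin family, can hold reads from elsewhere.

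From these lists, peaks were taken by assigned gene, ranked by score within their list (percentile) and merged at an overlap of 1 bp. Scores below 10 were whole multiples of 1 step (within rounding to 2 decimals, 100.0% of them), the worth of 1 tag: 0.0962 for EDL, 0.1281 for Quad, 0.0956 for Sol and 0.1007 for Dia. Tag numbers are score over step, with exact 95% Poisson intervals, and shares have Wilson intervals. Both cover counting error only. The Poisson intervals treat tags as independent counts, which paired reads and a limit on reads per position need not give. Since the lists are 4 single libraries, no p-value was computed. All 9 genes are named, with 5 paralogues, partners where their promoter pattern equals that of a listed gene, and neighbours that take peaks nearby. The genes, lists and motifs were chosen with earlier results of these data known. Starts and sequences came from RefSeq GRCm38.p6, gene spans from GENCODE vM21, positions are 1-based. Python 3.11.15, pandas 2.3.3, scipy 1.17.1 and pysam 0.24.0 were used, and the scripts were tested on simulated lists. Alternatives were shorter lists, other peak assignment, promoter and overlap rules, percentiles within a class and motif windows.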

Additional observations from a re-analysis of the deposited data

How the results depend on the processing

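Of 53 values recomputed under alternative settings, 45 stayed within their limits (counts within 1.5 times) and 8 moved. When every list was restricted to its 20000 highest-scored peaks, Quad held 9 peaks of these genes instead of 19, and the regions shared by EDL and Quad fell to 7 and those shared by Quad and Sol to 6, each from 11. Fewer Quad peaks enter by construction, and the Quad promoter peaks of Acta2 and Actn2 drop out. Counting every peak in the gene span or within 10 kb gave 14 peaks in Dia instead of 9, since neighbours' peaks enter. Ranked among peaks of the same class, the median percentiles were 78.3 for EDL, 51.7 for Quad, 75.9 for Sol and 66.9 for Dia, so Dia no longer stood highest. Leaving out peaks below percentile 25, peaks beyond 50 kb, a promoter of 1 kb on either side, a reciprocal overlap of 50%, joining within 500 bp and 200 bp motif windows moved no count by over 1.5 times. No paired analysis was possible because each muscle has 1 library and no test was run. Single lists of unequal length and width limit every comparison between muscles.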
